A study of Mus musculus with 8 samples.

Results

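The 10 genes described here encode the machinery that keeps DNA polymerases on the template and finishes the lagging strand: the sliding clamp (Pcna), the subunits of its loader (Rfc1, Rfc2, Rfc3, Rfc4 and Rfc5), the flap endonuclease Fen1, the DNA ligase Lig1, and subunits of the single-strand binding protein RPA (Rpa1 and Rpa2). They were taken by name, with every probe set that the array's annotation assigns to them, which gave 19 probe sets among the 34945 that carry a single gene symbol, and 10 of the 18193 genes so named. The choice was made with earlier results of these data known, so the shares of all genes given below serve as description. All 10 genes and all 19 probe sets passed the filter on low values, a log2 signal above 5 on at least 2 arrays. RNA was measured on Affymetrix mouse arrays in cells of 2 murine tumours, LLC (a lung carcinoma of Lewis) and colon26 (a carcinoma of the colon), whose lines stably carry the fluorescent protein EGFP under the mouse PSF1 promoter. PSF1 is the product of Gins1, a subunit of the GINS complex at replication forks. Tumours were grown under the skin of mice for 4 weeks (LLC) or 2 weeks (colon26), dissociated, and sorted by FACS into EGFP-high and EGFP-low cells. The 4 groups were LLC high, LLC low, colon26 high and colon26 low, with 2 arrays each, numbered 1 and 2. The sample titles call these biological replicates. The sources used here do not state the strain of the host mice, whether the lines are clones, or whether the numbers stand for separate tumours. The p-values therefore measure only how these arrays vary, which may be in part technical. EGFP reports a replication gene's promoter, so the sort itself selects on a gene close in function to those described.

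During replication the loader, a ring of subunits that binds ATP, opens the clamp and closes it around DNA at the end of a primer. The clamp then tethers the replicative polymerases and serves as a platform for Fen1 and Lig1. On the lagging strand, Fen1 cuts off the displaced 5′ flap that holds the primer, and Lig1 seals the remaining nick between neighbouring Okazaki fragments. RPA covers the single-stranded template ahead of the polymerase. Rfc1 is the large subunit of the canonical loader, whereas Rfc2 to Rfc5 are shared with alternative loaders in which another large subunit takes its place. Transcription of many such genes is linked to the cell cycle through E2F factors.

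Most of the 10 genes had more RNA in EGFP-high than in EGFP-low cells of both lines. As the mean of both lines, 8 of 10 rose, against 7.47% of the 12177 genes tested, and none fell (5.57% of all). In LLC 7 of 10 rose (4.98% of all genes tested), and in colon26 3 of 10 rose (2.18%). A gene is said to have risen where its limma adjusted p was under 0.05 over all 12177 genes, with the high and low arrays of the same line and number treated as a pair. The median log2 change of the 10 genes was 0.95 in LLC, 0.56 in colon26 and 0.75 over both, beside 0.04, 0.08 and 0.04 over all genes tested. Of the 10 genes, 10 were higher in the high array of LLC pair 1, 10 in LLC pair 2, 10 in colon26 pair 1 and 9 in colon26 pair 2, Fen1 being the exception, beside 55.7%, 52.8%, 53.9% and 65.3% of all genes tested. The median change was smallest in colon26 pair 1, at 0.37, and was 0.77 in LLC pair 1, 1.01 in LLC pair 2 and 0.77 in colon26 pair 2. Over all genes the median change was 0.18 in colon26 pair 2 and 0.02 to 0.05 in the other pairs. The low array of that pair stood apart, with 11869 named genes above a log2 signal of 5, against 10565 to 11175 on the other 7 arrays. Without the pairs, none of the 10 passed in either line or over both (0.0% of all genes rose in each). Fewer of the 10 passed over both lines without LLC pair 1, LLC pair 2 or colon26 pair 2. Fewer also passed in LLC whichever pair was left out, and in colon26 without colon26 pair 1 or colon26 pair 2. Such fits leave 1 array in each group of a line. The colon26 count was 0 after quantile normalization. The share of all genes that rose is not given for these fits. Whether the 10 genes lost more calls than other genes was not tested.

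**Figure D1:**
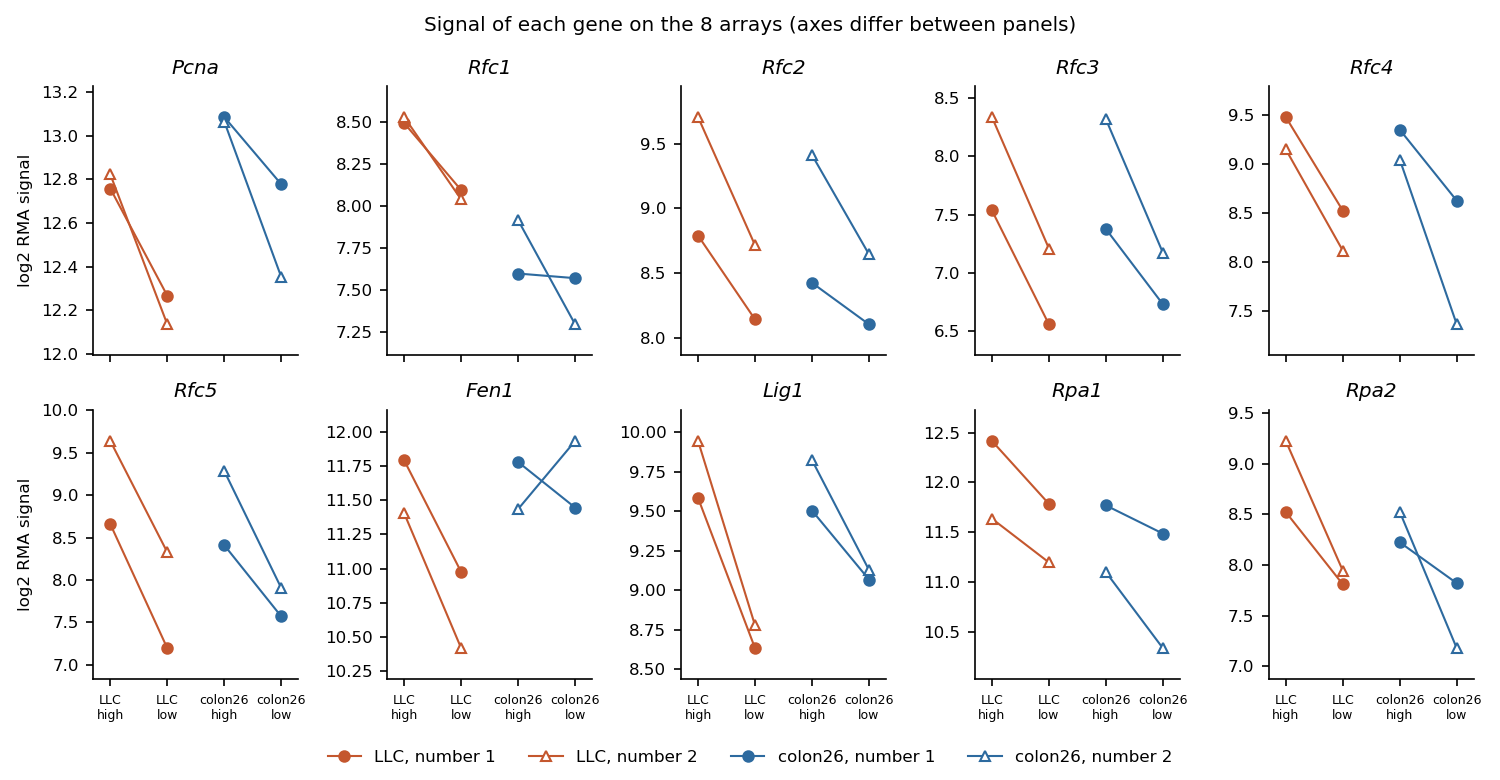
Log2 RMA signal (y axis, scaled for each panel) of the 10 genes on each of the 8 arrays, with high left of low within a line (x axis). Lines join the high and low arrays of the same number. High lies above low in each pair except for Fen1 in colon26 pair 2.

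Several values of the arrays moved with these groups or with the array numbers. The median log2 signal of an array was between 4.76 and 5.02. The 3′ probe sets of 4 control transcripts exceeded their 5′ probe sets by a median of 2.41 to 2.70 on the arrays numbered 1 and of −0.01 to 0.35 on those numbered 2. The number 2 minus number 1 differences in high cells correlated with those in low cells of the same line, over the 12177 genes, at r = 0.887 in LLC and 0.838 in colon26, as a description of paired arrays. Most macrophage markers were lower in high cells, 9 of the 11 tested passing in LLC and 10 of 11 in colon26. Those that did not pass were Cd14 and Adgre1 in LLC (changes of 0.44 and 0.01) and Cd14 in colon26 (−0.04). The summed linear signal of the macrophage markers was 680 to 815 in LLC high and 1715 to 1802 in LLC low arrays. In colon26 it was 1362 to 2197 in high and 5595 to 7869 in low arrays. Fibroblast markers were lower too, 8 of 10 passing in LLC and 4 of 10 in colon26. Their sums were 9881 to 10475 in LLC high and 29569 to 42451 in LLC low, and 33435 to 34837 in colon26 high and 39815 to 48996 in colon26 low. Endothelial markers summed to 268 to 593 in LLC high, 267 to 693 in LLC low, 265 to 285 in colon26 high and 465 to 623 in colon26 low, with 0 of 6 passing as lower in LLC and 3 of 6 in colon26. Over both lines 9 macrophage, 10 fibroblast and 4 endothelial markers passed as lower, against 5.57% of all genes tested. The share of all genes that passed as lower within a line is not given. Of 4 lymphocyte markers tested none passed, and the 2 erythroid markers on the array stayed below the filter. In bulk RNA, fewer cells of a type and less RNA per cell cannot be told apart, and the part of these markers in the changes below was not tested. Of 4 epithelial markers tested none passed between the sorts, in either line. The keratin Krt8 averaged 12.67 in LLC high and 12.40 in LLC low but 5.36 in colon26 high and 5.66 in colon26 low cells. Epcam averaged 6.86 in LLC high, 7.02 in LLC low, 6.08 in colon26 high and 6.39 in colon26 low cells, and the epithelial cadherin Cdh1 stayed below 5 on every array. Gins1 itself rose by 1.28 in LLC and 1.07 in colon26 (limma adjusted p = 0.00334 and 0.0168).

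The start regions of 9 of the 10 genes were read from RefSeq (GRCm38.p6), as 300 bases each with 250 before the annotated start and 50 from it on. They were searched on both strands for a set of E2F words (the word TTCCCGC, the word TTCGCGC, the word TTGCCGC, the word TTGGCGC), for the same set with a T in front, and for CCAAT, the NF-Y word. Fen1 had 2 annotated starts and Lig1 3, so the 9 genes had 12 windows. One of the E2F words lay in 7 of the 12 windows, beside 9.6% of the 32851 windows of all genes, and these belonged to 6 genes (Rfc1, Rfc3, Rfc4, Fen1, Lig1 and Rpa2). The longer form lay in 2 of the 12, those of Rfc3 and Lig1, beside 2.3% of all windows. CCAAT lay in 5 of the 12 (Pcna, Rfc1, Rfc3, Rpa1 and Rpa2), a share near the 37.4% of all windows. The GC box GGGCGG lay in 6 of the 12, beside 35.7% of all windows, and the cell cycle words TTTGAA and TTCGAA in 2 of the 12, beside 19.2%. The windows below are examples, of which 4 hold E2F words close to the start and that of Pcna holds none. Such words also lie close to the start in windows not shown. They begin 27 and 30 bases after it in Rfc1, 34 before it in Fen1 start 2 and 3 after it in Lig1 start 3. Capitals mark the E2F words and CCAAT on either strand, and sequences run 5′ to 3′ along the gene.
Rfc3, chr5:151651159-151651458, minus strand: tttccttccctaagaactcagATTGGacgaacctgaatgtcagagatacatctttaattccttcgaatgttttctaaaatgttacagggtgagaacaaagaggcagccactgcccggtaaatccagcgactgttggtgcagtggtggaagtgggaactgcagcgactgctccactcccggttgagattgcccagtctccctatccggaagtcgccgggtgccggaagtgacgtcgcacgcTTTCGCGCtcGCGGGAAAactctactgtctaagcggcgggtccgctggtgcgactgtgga
Rfc4, chr16:23127681-23127980, minus strand: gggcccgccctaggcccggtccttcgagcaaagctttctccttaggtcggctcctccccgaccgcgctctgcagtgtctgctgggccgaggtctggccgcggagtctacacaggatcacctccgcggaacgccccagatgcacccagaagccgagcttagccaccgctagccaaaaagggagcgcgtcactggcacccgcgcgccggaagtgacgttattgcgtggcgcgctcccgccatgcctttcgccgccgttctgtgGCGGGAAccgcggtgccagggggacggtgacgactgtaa
Lig1, start 2, chr7:13278576-13278875, plus strand: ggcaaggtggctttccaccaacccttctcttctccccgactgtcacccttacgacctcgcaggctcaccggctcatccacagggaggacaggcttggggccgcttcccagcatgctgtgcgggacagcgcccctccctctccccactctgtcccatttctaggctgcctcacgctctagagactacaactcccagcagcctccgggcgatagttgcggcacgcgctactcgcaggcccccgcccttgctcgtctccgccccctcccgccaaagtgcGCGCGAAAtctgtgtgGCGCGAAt
Rpa2, chr4:132768110-132768409, plus strand: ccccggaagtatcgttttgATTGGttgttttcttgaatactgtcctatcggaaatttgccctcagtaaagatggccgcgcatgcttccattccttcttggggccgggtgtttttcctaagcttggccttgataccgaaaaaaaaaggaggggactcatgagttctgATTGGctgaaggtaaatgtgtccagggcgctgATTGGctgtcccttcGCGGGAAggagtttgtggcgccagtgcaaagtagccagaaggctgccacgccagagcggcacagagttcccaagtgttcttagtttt
Pcna, chr2:132253131-132253430, minus strand: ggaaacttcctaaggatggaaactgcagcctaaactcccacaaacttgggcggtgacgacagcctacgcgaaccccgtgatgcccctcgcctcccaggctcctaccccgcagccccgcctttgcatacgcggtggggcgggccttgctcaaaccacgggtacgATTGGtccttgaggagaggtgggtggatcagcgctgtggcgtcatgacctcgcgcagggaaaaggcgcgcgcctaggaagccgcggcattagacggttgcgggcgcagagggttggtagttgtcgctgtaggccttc

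In Rfc3 the word TTTCGCGC begins 10 bases before the start as read along the gene, and GCGGGAAA, the reverse complement of another of the words, begins at the start itself. The Rfc4 word begins 11 bases and the marked words of Lig1 start 2 begin 26 and 42 bases after the start base, while that of Rpa2 begins 37 bases before it. Rpa2 also carries CCAAT on the reverse strand at 231, 84 and 52 bases before the start, and Pcna carries it at 87 bases before. Rfc5, which had the largest change of the 10 in LLC and over both lines by the probe sets that represent the genes, had none of the words searched in its window. A word is a match of letters, not a shown binding site.

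Pcna, the clamp, was measured by a probe set whose mean signal lay above that of 99.5% of all 45101 probe sets on the array. It had a log2 signal of 12.76 and 12.82 in LLC high cells, against 12.27 and 12.14 in LLC low cells. The colon26 values were 13.09 and 13.07 in high cells, against 12.78 and 12.35 in low cells. High and low arrays did not overlap in either line, and the colon26 high arrays lay above all others. The change was 0.59 (SE 0.19) in LLC and 0.51 (SE 0.19) in colon26, and neither passed (limma adjusted p = 0.0751 and 0.208). The mean of the lines was 0.55 (SE 0.13, 1.46-fold, limma adjusted p = 0.0226), which passed. It no longer passed without LLC pair 1, LLC pair 2 or colon26 pair 2, with limma adjusted p of 0.077, 0.215 and 0.125. RefSeq lists copies of the gene named Pcna-ps1 and Pcna-ps2, and RNA of such copies could not be told apart from that of Pcna here.

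Of the loader, the 4 small subunits rose over both lines together and the large subunit did not pass. Rfc5 had 8.66 and 9.64 in LLC high cells, against 7.19 and 8.33 in LLC low cells. In colon26 its values were 8.41 and 9.28 in high cells, against 7.57 and 7.90 in low cells. Number 2 arrays were higher than number 1 arrays in every group, and high exceeded low without overlap in both lines. Rfc5 rose by 1.39 in LLC (SE 0.20, 2.62-fold, limma adjusted p = 0.00165) and by 1.11 in colon26 (SE 0.20, 2.16-fold, limma adjusted p = 0.0104). Its mean change of 1.25 exceeded that of 98.9% of all genes tested.

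Rfc4 had 9.48 and 9.15 in LLC high cells, against 8.53 and 8.12 in LLC low cells. It had 9.35 and 9.05 in colon26 high cells, against 8.63 and 7.36 in colon26 low cells. The groups did not overlap within a line, and the colon26 low array numbered 2 was the lowest of the 8. Rfc4 rose by 0.99 in LLC (SE 0.23, limma adjusted p = 0.0207) and by 1.20 in colon26 (SE 0.23, limma adjusted p = 0.0159). As the mean of its probe sets, the LLC call did not hold (limma adjusted p = 0.0617). Without colon26 pair 2 the colon26 change was 0.72 and did not pass (limma adjusted p = 0.326). The other probe set of Rfc4 went further on that array, with 5.62 against 8.23 on its high partner, and changed by 2.61 in this pair and by 0.65 in colon26 pair 1.

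Rfc3 had 7.54 and 8.34 in LLC high cells, against 6.56 and 7.21 in LLC low cells. The colon26 values were 7.38 and 8.32 in high cells, against 6.73 and 7.17 in low cells. The values of the lines lay close together in each sort, and high exceeded low without overlap. The gene rose by 1.05 in LLC (SE 0.19, limma adjusted p = 0.00651) and by 0.90 in colon26 (SE 0.19, limma adjusted p = 0.0289). The colon26 call did not hold without either colon26 pair (limma adjusted p = 0.0649 without pair 1 and 0.413 without pair 2), after quantile normalization (0.0709), or over the 25626 probe sets (0.0569). In that last fit the other probe set rose by 0.98 in LLC, and its change of 0.73 in colon26 did not pass either.

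Rfc2 had 8.79 and 9.71 in LLC high cells, against 8.14 and 8.72 in LLC low cells. It had 8.42 and 9.41 in colon26 high cells, against 8.10 and 8.64 in colon26 low cells. The colon26 groups overlapped, since the high array numbered 1 lay below the low array numbered 2, but high exceeded low within each pair. Rfc2 rose by 0.82 in LLC (SE 0.20, limma adjusted p = 0.0235), and its change of 0.55 in colon26 did not pass (limma adjusted p = 0.194). With only the LLC arrays the LLC call did not hold (limma adjusted p = 0.0512). The mean was 0.68 (limma adjusted p = 0.00933), and the other 2 probe sets gave 0.69, which passed over the 25626 probe sets tested, and 0.48, which did not.

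Rfc1, the large subunit, had 8.49 and 8.53 in LLC high cells, against 8.09 and 8.04 in LLC low cells. The colon26 values were 7.60 and 7.92 in high cells, against 7.57 and 7.30 in low cells. The groups did not overlap, although colon26 pair 1 differed by only 0.03. The change was 0.44 in LLC, 0.32 in colon26 and 0.38 over both (SE 0.14, 95% interval 0.07 to 0.69, limma adjusted p = 0.105). None of its 3 probe sets passed, with mean changes of 0.38, 0.27 and 0.14. The sorts overlapped in both lines for the last 2 of these. The one with 0.27 changed by −0.20 in colon26 pair 1. The one with 0.14 changed by −0.38 and 0.47 in LLC pairs 1 and 2, and by −0.01 and 0.50 in those of colon26. Its colon26 values, 4.53 to 5.24, lay near the filter of 5. Whether Rfc1 changed less than the small subunits was not tested, and a probe set's scale is its own. By the probe sets that represent the genes, Rfc1 had the largest offset of the 10 between the lines among high cells. It was 0.75 higher in LLC high than in colon26 high (limma adjusted p = 0.0988) and 0.63 higher in LLC low than in colon26 low (limma adjusted p = 0.13).

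**Figure D2:**
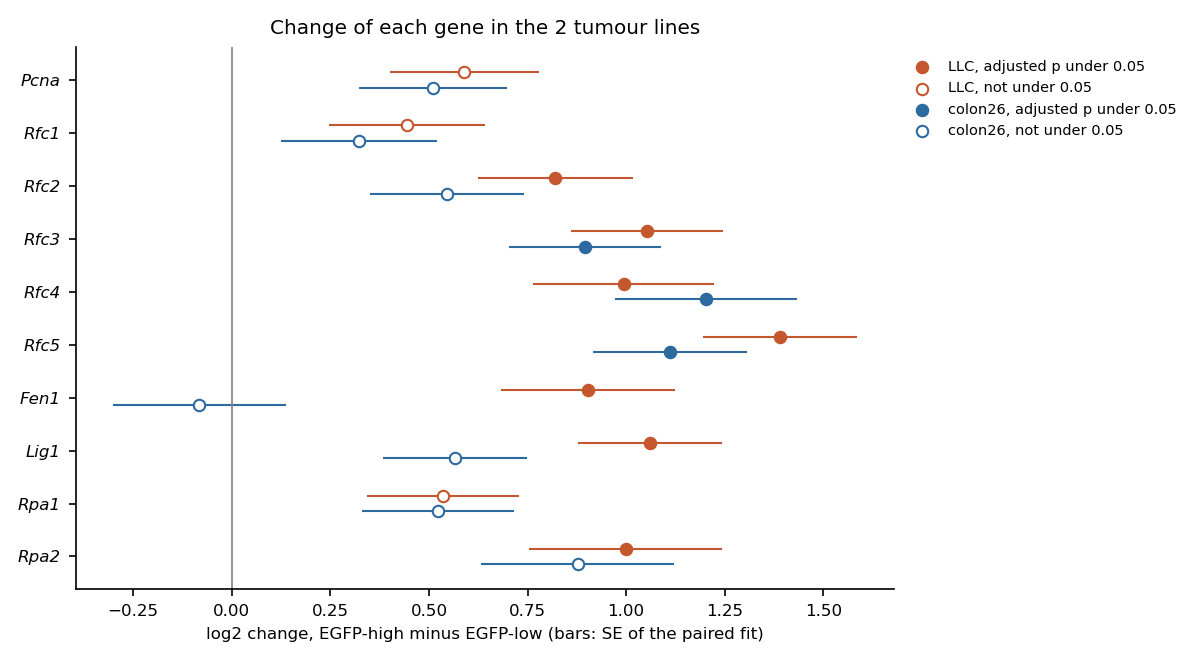
Log2 change, EGFP-high minus EGFP-low (x axis), of each gene (y axis) in LLC (upper point) and colon26 (lower point), with bars for the SE of the paired limma fit. Filled points passed an adjusted p of 0.05, 7 in LLC and 3 in colon26, and the Fen1 point of colon26 lies left of 0.

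Fen1 gave different answers from its 2 probe sets. The brighter one, which represented the gene and whose name ends in x (a class of probe sets that may detect several transcripts), had 11.79 and 11.40 in LLC high cells, against 10.97 and 10.42 in LLC low cells. In colon26 it had 11.78 and 11.44 in high cells, against 11.45 and 11.94 in low cells. The LLC groups did not overlap, whereas the colon26 pairs went opposite ways, by 0.33 in pair 1 and −0.50 in pair 2. By this probe set Fen1 rose by 0.90 in LLC (SE 0.22, limma adjusted p = 0.0257) and changed by −0.08 in colon26 (95% interval −0.57 to 0.40, limma adjusted p = 0.876). Its LLC call did not hold without the filter (limma adjusted p = 0.0504) or after quantile normalization (limma adjusted p = 0.0793).

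The other Fen1 probe set had 7.90 and 9.75 in LLC high cells, against 6.55 and 8.30 in LLC low cells. It had 7.92 and 9.54 in colon26 high cells, against 7.18 and 7.88 in colon26 low cells. High exceeded low in all 4 pairs, and number 2 arrays exceeded number 1 arrays in every group. Tested over the 25626 probe sets, it rose by 1.41 in LLC (limma adjusted p = 0.00626) and by 1.20 in colon26 (limma adjusted p = 0.0303). The 2 probe sets thus agreed in direction in LLC and not in colon26 pair 2.

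Lig1 had 9.58 and 9.95 in LLC high cells, against 8.63 and 8.78 in LLC low cells. In colon26 it had 9.50 and 9.82 in high cells, against 9.07 and 9.13 in low cells. High arrays of the lines overlapped each other, and both lay above all 4 low arrays. Lig1 rose by 1.06 in LLC (SE 0.18, 2.08-fold, limma adjusted p = 0.00464). Its change in colon26 was 0.57 and did not pass (SE 0.18, limma adjusted p = 0.143). The difference between the changes of the lines did not pass either (limma adjusted p = 0.416).

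Rpa2, the middle subunit of RPA, had 8.52 and 9.23 in LLC high cells, against 7.81 and 7.94 in LLC low cells. In colon26 it had 8.22 and 8.53 in high cells, against 7.82 and 7.18 in low cells. The groups did not overlap in either line. It rose by 1.00 in LLC (SE 0.25, limma adjusted p = 0.0269), and its change of 0.88 in colon26 did not pass (limma adjusted p = 0.0926). The LLC call did not hold with only the LLC arrays (limma adjusted p = 0.0541) or without the filter (limma adjusted p = 0.0575). The mean of the lines rose by 0.94 (limma adjusted p = 0.00577). Its other probe set had 6.31 and 9.14 in LLC high cells, against 4.93 and 7.47 in LLC low cells, and 4.83 and 8.39 in colon26 high cells, against 4.55 and 6.63 in colon26 low cells. There the gap between the numbers exceeded the gap between the sorts in every group, and high was above low within each pair.

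Rpa1, the large subunit that makes most of the contacts with DNA, had 12.42 and 11.64 in LLC high cells, against 11.78 and 11.20 in LLC low cells. It had 11.77 and 11.10 in colon26 high cells, against 11.49 and 10.33 in colon26 low cells. The sorts overlapped in both lines and separated only within pairs. Here number 1 arrays were the higher ones. The change was 0.54 in LLC and 0.52 in colon26, and neither passed (limma adjusted p = 0.109 and 0.206), while the mean of 0.53 did (SE 0.14, 1.44-fold, limma adjusted p = 0.0292). The mean no longer passed without LLC pair 1, LLC pair 2 or colon26 pair 2 (limma adjusted p = 0.197, 0.12 and 0.143). The other probe set, with 10.07 and 10.28 in LLC high cells against 9.54 and 9.44 in LLC low cells and 10.07 and 10.13 in colon26 high cells against 9.66 and 9.04 in colon26 low cells, separated the sorts without overlap.

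**Figure D3:**
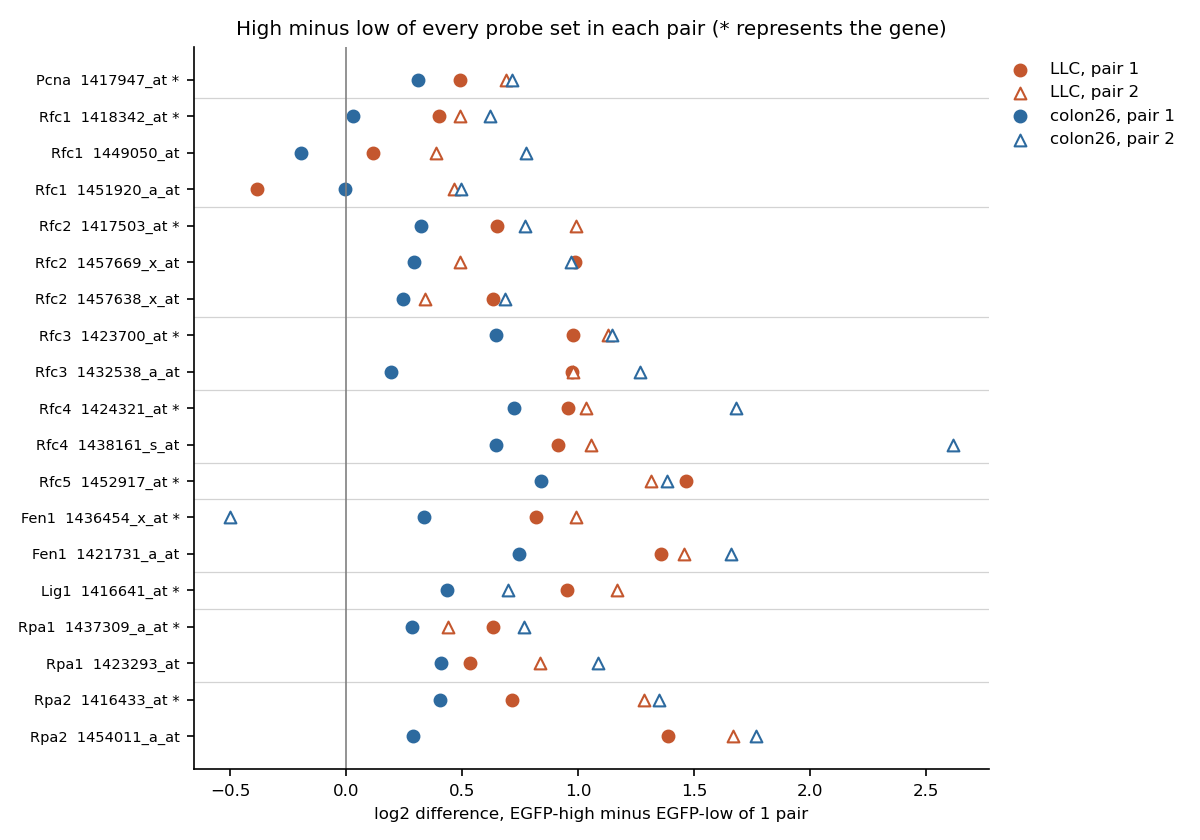
Log2 difference, EGFP-high minus EGFP-low (x axis), of each of the 19 probe sets (y axis, grouped by gene, the star marking the one that represents the gene) in the 4 pairs. In LLC pair 1, LLC pair 2, colon26 pair 1 and colon26 pair 2, 18, 19, 17 and 18 of the 19 lie right of 0.

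Counted by probe set, 14 of 19 rose over both lines, against 4.92% of the 25626 probe sets tested. In LLC 10 of 19 rose (3.37% of all), and in colon26 3 of 19 (1.13% of all), those of Rfc4, Rfc5 and the dimmer one of Fen1. The 5 that did not pass in the mean were the 3 of Rfc1, the dimmest of Rfc2 and the brighter one of Fen1. Without the pairs, 0 of 19 passed in the mean (0.0% of all).

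Without regard to pairs, both high arrays lay above both low arrays for 9 of 10 genes in LLC, Rpa1 being the exception, against 17.4% of all genes tested. In colon26 this held for 7 of 10 (12.0% of all), the exceptions being Rfc2, Fen1 and Rpa1. It held in both lines for 7 of 10 (5.82% of all).

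The array number and the sort moved these genes by amounts of the same order. The median absolute difference between the numbers of a group was 0.43 for the 10 genes and 0.57 for the 19 probe sets, beside 0.44 for all genes tested. The median absolute difference between the sorts of a pair was 0.72 for the 10 genes, beside 0.24 for all genes. Some probe sets of one gene moved opposite ways with the number: those of Fen1 and of Rfc2 did so while all of them had positive changes with the sort over both lines. Changes between sorts are therefore given within pairs throughout.

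**Figure D4:**
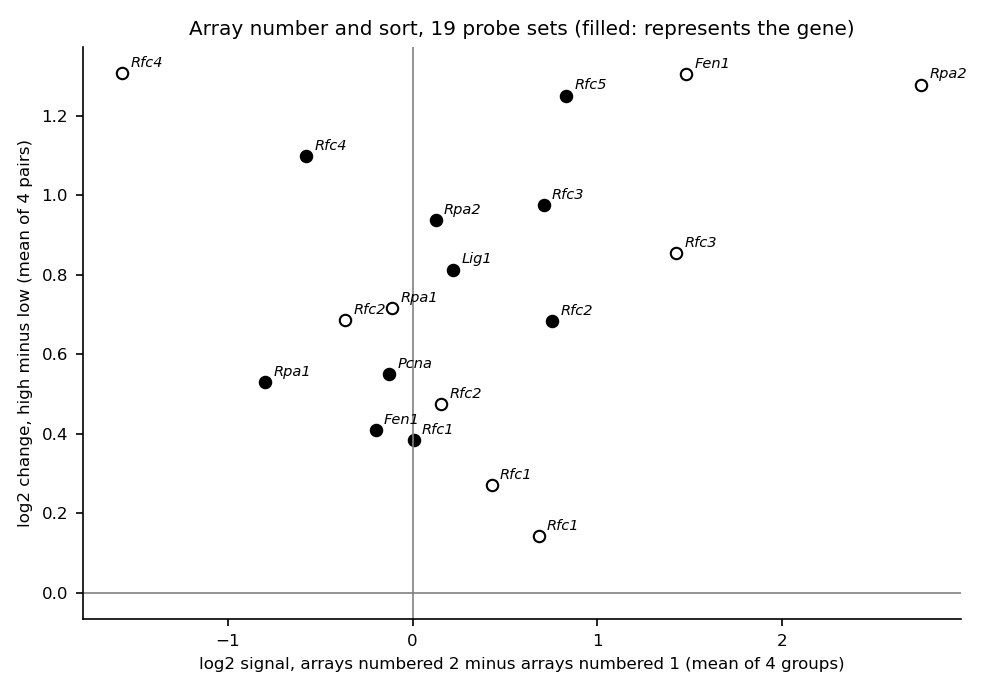
For each of the 19 probe sets, the log2 difference between arrays numbered 2 and 1 (x axis, mean of the 4 groups) against the log2 change high minus low (y axis, mean of the 4 pairs). All 19 lie above 0 on the y axis, between 0.14 and 1.31, and on both sides of 0 on the x axis. Filled points represent the gene.

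Between the lines, none of the 10 changes differed at an adjusted p of 0.05, against 1.41% of all genes tested, and only that of Fen1 had an unadjusted p under 0.05 in limma. For the brighter probe set of Fen1 the LLC change exceeded the colon26 change by 0.99 (SE 0.31, 95% interval 0.30 to 1.67, limma adjusted p = 0.195). Leaving out probe sets whose names end in x or s, which was decided after the values were seen, brought the count of genes that rose to 7 in LLC, 4 in colon26 and 9 over both (4.99%, 2.15% and 7.51% of all genes). Nor did any of the 10 differ between LLC high and colon26 high or between LLC low and colon26 low, where 11.3% and 14.0% of all genes passed. There 1 and 2 of the 10 had an unadjusted p under 0.05 in limma. The share of all genes with an unadjusted p under 0.05 is not given for any comparison of the lines. With the array number as a block shared by the lines, Rfc1 and Rpa1 were higher in LLC in both sorts and Fen1 was lower in LLC low than in colon26 low, while 39.2% and 46.2% of all genes passed. Line, tumour type and weeks of growth cannot be told apart here.

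A list of 28 other genes of lagging strand synthesis and clamp loading was tested in full. It too was chosen with earlier results of these data known. Over both lines 20 rose (7.47% of all genes) and 0 fell (5.57%), with a median change of 0.62. In LLC 13 rose (4.98% of all genes) and in colon26 10 (2.18%), with medians of 0.66 in each. The largest mean change was that of Dscc1, a subunit of the alternative loader CTF18-RFC, which had 7.81 and 7.11 in LLC high cells, against 6.20 and 5.59 in LLC low cells. In colon26 it had 6.98 and 6.59 in high cells, against 6.17 and 4.44 in low cells, and its mean rise was 1.52 (limma adjusted p = 5.63e-04). Pclaf, a protein that binds the clamp, rose by 1.40 (limma adjusted p = 0.00111), and the exonuclease Exo1 rose by 1.30 (limma adjusted p = 2.72e-04). The smallest were Pold4 and Pold3, accessory subunits of polymerase delta, with −0.01 and 0.24, and Rnaseh2c of the RNase H2 complex with 0.27, and none of these passed (limma adjusted p = 0.966, 0.353 and 0.184). The large subunits that replace Rfc1 in alternative complexes were picked out after their values were seen. Atad5, which unloads the clamp, rose by 1.20 and Chtf18 by 0.91, while Rad17, which loads the checkpoint clamp, had 0.29 and did not pass (limma adjusted p = 0.00184, 0.0251 and 0.205). Chtf18 lay below 5 on every array numbered 1, with 4.52 in LLC high against 4.49 in LLC low, and 4.87 in colon26 high against 4.27 in colon26 low. It passed in neither line alone (limma adjusted p = 0.176 in LLC and 0.113 in colon26).

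**Figure D5:**
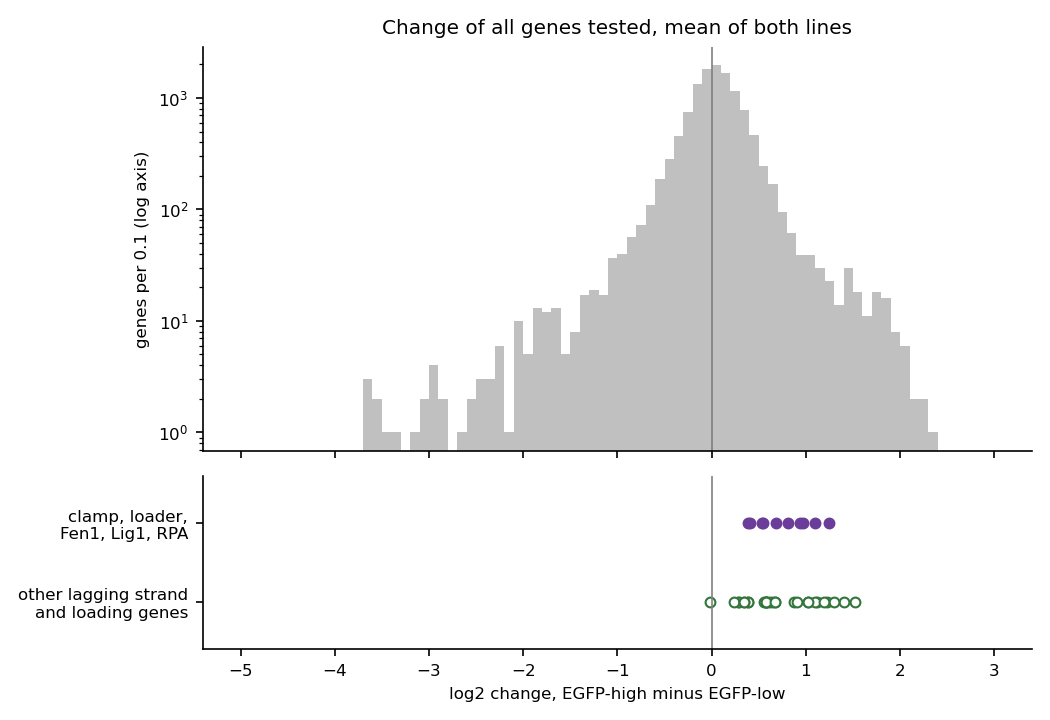
Upper panel, the number of genes (log axis) per step of log2 change, EGFP-high minus EGFP-low as the mean of both lines (x axis), for all 12177 genes tested. Lower panel, the 10 genes (filled, 0.38 to 1.25) and the 28 other genes of lagging strand synthesis and clamp loading (open, −0.01 to 1.52) on the same axis.

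The genes whose 8 values, centred on their own means, lay closest to the average profile of the 10 genes were Nup85 (Euclidean distance 0.24, log2 scale), Cdt1 (0.31), Coq7 (0.35), Mrps25 (0.37) and Cse1l (0.37). The 10 genes themselves lay between 0.49 (Lig1) and 1.47 (Rpa1) from that average, which each of them helps to set. Nup85 is a nucleoporin and Cdt1 a licensing factor of replication origins. Nup85 averaged 9.74 in LLC high and 8.81 in LLC low cells, and 9.53 in colon26 high and 8.78 in colon26 low cells. The profiles share arrays, pairs and the number effect, and likeness over 8 arrays is given as a description.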

How the data were processed

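RNA of 8 samples was hybridised to 1-colour Affymetrix arrays. The authors used RMA to summarise the 45101 probe sets (per the submitters' processing notes), which gives deposited values in log2 units. Its software, its options and the set of arrays normalized at once are not stated there. In the 4 colon26 samples the description names LLC. Title, source and cell line say colon26, and these were followed.

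Genes were named through the platform's annotation and RefSeq symbols of GRCm38.p6 (34945 probe sets with 1 symbol, 932 with several, 9160 with none, 64 controls). A gene was represented by its brightest probe set, by the mean of all 8 arrays, and 12177 genes with a log2 value above 5 on at least 2 arrays were tested. limma 3.58.1 in R 4.3.3 was fitted to all 8 arrays with the pair (line and number) as a block, with 2 residual and 8.25 prior degrees of freedom. Contrasts between lines used 4 group means, with 4 residual and 2.34 prior degrees of freedom. Benjamini-Hochberg adjustment ran within a contrast at 0.05. The block follows the replicate numbers in the labels, and the number differences of high and low arrays correlated at 0.887 (LLC) and 0.838 (colon26). Every probe set was also fitted, over 25626 probe sets.

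Members and gene lists were chosen with earlier results of these data known. All members are described. Of the 28 other genes, the 3 largest and 3 smallest mean changes are named, and the 5 genes nearest to the average profile. Alternatives were no block, no filter, a filter of 7, quantile normalization, median centring, trend with robust moderation, other choices of probe set, only the arrays of a line, and leaving out each pair, or each array between lines. Motifs and figures used Python 3.11.15 and matplotlib 3.10.9. The number of arrays limits the precision.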

Additional observations from a re-analysis of the deposited data

Results flagged for a closer look

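Outside the 10 genes, a macrophage and a fibroblast marker, each among the brightest 2 of its list, changed by different amounts in the lines. This was read from the interaction term of the paired fit. Over the full lists, 5 of 11 macrophage, 4 of 10 fibroblast and 1 of 6 endothelial markers passed in that term, against 1.41% of all genes tested. Lyz2, a lysozyme of myeloid cells, fell by 2.16 in LLC and by 4.64 in colon26, so that the LLC change minus the colon26 change was 2.48 (SE 0.27, limma adjusted p = 0.003). Dcn, a matrix proteoglycan of fibroblasts, fell by 3.39 in LLC and had a change of −0.36 in colon26, which did not pass, and the difference was −3.03 (SE 0.35, limma adjusted p = 0.0041). The difference between lines of none of the 10 replication genes passed in the same fit. Groups of 2 arrays were not tested for a sample that stands apart.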

How the results depend on the processing

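Without the replicate block no member passed in either line (0 and 0) or over both (0), against 7, 3 and 8 with it, and 0 of 19 probe sets against 14. After quantile normalization 0 passed in colon26. With trend and robust moderation 6 passed in colon26, and 1 member, Fen1, differed between the lines (limma adjusted p = 0.0495). The share of all genes passing is not given for quantile normalization, for this moderation, or for fits without a pair or array. Whether members gained or lost more calls than other genes was not tested. Leaving out a pair gave 1 to 5 members in LLC, 0 to 4 in colon26, 3 to 8 for the mean of the lines and 2 to 11 probe sets, with 0 to 0 for the difference between the lines, and leaving out an array gave 0 to 0 for the comparisons of high cells and of low cells between the lines. In LLC 4 passed without LLC pair 1 and 1 without LLC pair 2. In colon26 1 passed without colon26 pair 1 and 0 without colon26 pair 2. Of the probe sets 7 passed without colon26 pair 1 and 2 without colon26 pair 2. With the replicate block shared by the lines, 2 members passed between LLC high and colon26 high and 3 between LLC low and colon26 low. The Fen1 change in colon26, −0.08 by the brighter probe set, was 0.56 as the mean of its probe sets, 1.20 with probe sets ending in x or s left out (an alternative chosen after seeing the data), and lay between −0.50 (without colon26 pair 1) and 0.33 (without colon26 pair 2) when a pair was left out. The x or s choice follows from the other probe set, and the mean takes in both. A fit without 1 colon26 pair gives the Fen1 change of the remaining pair. The cause of the shifts in the counts was not tested. The median change of all genes in colon26 was 0.08 as deposited, −0.01 after quantile normalization and 0.17 after median centring. Of the values of single members under the alternatives, 334 kept their direction and side of the threshold, 58 lost the call, 15 gained one and 3 reversed. In this tally some fits repeat each other. For LLC changes, fits without a colon26 pair gave the same values as only the LLC arrays, and likewise for colon26. The tally is thus not a count of independent alternatives. Changes of single pairs rest on 2 arrays and carry no error of their own.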
